A study of Mus musculus with 13 samples.

Results

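The hippocampus of Tmem184b-mutant mice was compared with that of wild type mice at 5 months of age, in 7 of the 13 RNA-seq libraries of the study. The 7 libraries were chosen by age and genotype alone: 4 from C57BL/6 wild types and 3 from mice with a gene-trap insertion in both copies of Tmem184b (GT/GT), 1 library per mouse. The other 6 libraries came from mice of 15 months. The trap sits in Tmem184b itself and is not limited to a cell type. Controls carried no insertion and were bred in house, as littermates where possible, so that shared litters are not known for each mouse. Values are normalized counts per gene as deposited. A linear model (limma) on log2(normalized count + 1) compared the genotypes for the 15563 genes of 25025 with a mean of at least 10. A gene is said to have risen or fallen where its Benjamini-Hochberg adjusted p over all 15563 genes was under 0.05. Where values follow a gene in brackets, they are its log2 fold change ± standard error and this adjusted p. In whole tissue, fewer cells of a type and less RNA per cell cannot be told apart.

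Tmem184b encodes a multi-pass membrane protein that is expressed in hippocampal neurons. The hippocampus holds granule cells of the dentate gyrus, pyramidal cells of the CA fields, inhibitory interneurons that are told apart by neuropeptides such as somatostatin and neuropeptide Y, and glia and vessels. It borders on the lateral ventricle, where the choroid plexus, a secretory epithelium that makes cerebrospinal fluid and very large amounts of transthyretin (Ttr), hangs beside the fimbria and can enter a dissection. Neuronal firing switches on immediate early genes within minutes. Ribosomal protein genes are used by every cell, as are many, but not all, of the splicing regulators and long non-coding RNAs listed here. Of the marker genes, 20 of 20 for dentate granule cells, 17 of 18 for CA1 and 22 of 22 for CA2 and CA3 passed the filter on the mean. So did 24 of 24 markers of thalamus, striatum and neocortex, so passing that filter cannot tell the tissue.

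Sums of normalized counts were 28.1 to 28.7 in the wild types and 29.1 to 32.1 in the mutants, in units of 1e+06. Normalization set these sums and sequencing depth is unknown, which leaves counting error out of reach. The p-values measure the spread between these 7 mice.

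Tmem184b (GRCm38 chr15:79360684-79403569, minus strand) was measured at 2415, 2329, 2356 and 2475 in the wild types and 45, 43.2 and 31.3 in the mutants. Every mutant lay far below every wild type, with means of 2394 ± 64.9 (SD, n = 4) in the wild types and 39.8 ± 7.4 (SD, n = 3) in the mutants, 1.66% of wild type. Of 38 tested neighbours within about 1 Mb, on a hand-written list that does not hold every gene there, the ribosomal gene Rpl3 rose (0.50 ± 0.11, adjusted p = 0.0427) and the RNA helicase gene Ddx17 fell (-0.42 ± 0.081, adjusted p = 0.032). Within 10 Mb on either side 9 of 261 tested genes passed, Tmem184b included, where 2.27% of all genes tested did. Xist was measured at 5144, 2.93, 1.5 and 1.29 in the wild types and 2565, 12.6 and 13.7 in the mutants. Ddx3y was at 0, 674, 460.3 and 588 in the wild types and 0, 679 and 1102 in the mutants, which puts the females at wild type replicate 1 and mutant replicate 1.

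In all, 354 genes passed, 2.27% of those tested. Of these, 175 (1.12%) rose and 179 (1.15%) fell in Tmem184b-mutant hippocampi. Most changes were small, the median size being 0.58 on the log2 scale. The count depended on single libraries. It was 88, 107, 7 and 53 without wild type replicates 1, 2, 3 and 4, and 852, 911 and 28 without mutant replicates 1, 2 and 3. With an unadjusted p under 0.05 there were 1629 higher genes (10.5%) and 1554 lower genes (9.99%), and 18.5% of all genes tested had no overlap between the genotypes. These shares are the background for every gene list below. Between 5 and 15 months the genotype effect itself differed at 268 of 15340 genes tested at both ages (1.75%).

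Choroid plexus genes had lower means in the mutants, and the wild types themselves differed in them. Ttr, the transthyretin that the choroid plexus secretes, was measured at 70638, 2570.2, 84222 and 157866 in the wild types and 500.2, 2389 and 329 in the mutants. Wild type replicates 1, 3 and 4 were far above all mutants, while wild type replicate 2 lay just above mutant replicate 2 (-5.75 ± 1.17, adjusted p = 0.0373). Enpp2 (autotaxin) was measured at 14127, 3167, 14608 and 27159 in the wild types and 1651, 3726 and 2463 in the mutants. Wild type replicate 2 lay inside the range of the mutants (-2.22 ± 0.56, adjusted p = 0.0612). Ace, which encodes angiotensin-converting enzyme and is abundant on this epithelium, had 1881, 508, 1681 and 2969 in the wild types and 573, 893 and 509 in the mutants. Again wild type replicate 2 alone was as low as the lowest mutant (-1.21 ± 0.46, adjusted p = 0.167). The growth factor gene Igf2 (-0.32 ± 0.23, adjusted p = 0.488) and its binding protein gene Igfbp2 (-0.31 ± 0.28, adjusted p = 0.583), which are also made by meninges, overlapped between the genotypes.

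Of the 48 tested choroid plexus genes 7 fell, 14.6% against the background of 1.15%, and none rose. The list median of the log2 fold changes was -1.93, beside 0.00025 over all genes tested. Relative to the wild type mean, the list mean on the log2 scale was 0.44, -1.96, 0.35 and 1.17 in the wild types and -2.31, -1.64 and -2.27 in the mutants. The summed level ran from 18787 to 232009 in the wild types and 14444 to 25567 in the mutants. The 7 that fell were Ttr, Clic6, Kcne2, Calml4, Steap1, Slc4a5 and Prlr (named for having passed), and 13 of the 48 had no overlap. Set against wild type replicate 2 alone, the median change of the list was -0.062. With the choroid plexus level as a covariate it was 0.048. That level is the mean of these same genes, so a small value was fixed in advance and nothing is read from it. By the list means, most of the difference lay between wild type replicates 1, 3 and 4 and the other mice. The 7 that fell were still lower against wild type replicate 2 alone, with log2 changes of -1.81 to -0.89. Ependymal genes, which build the motile cilia of the cells that line the ventricle, were lower as well. Of 35 tested, 1 fell (Cfap65) and 15 had a lower mean at an unadjusted p under 0.05. The list mean was -0.25, -0.23, 0.17 and 0.31 in the wild types and -0.63, -0.0015 and -1.21 in the mutants. Mutant replicate 2 was level with the wild types there, and the other mutants were lower.

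**Figure D1:**
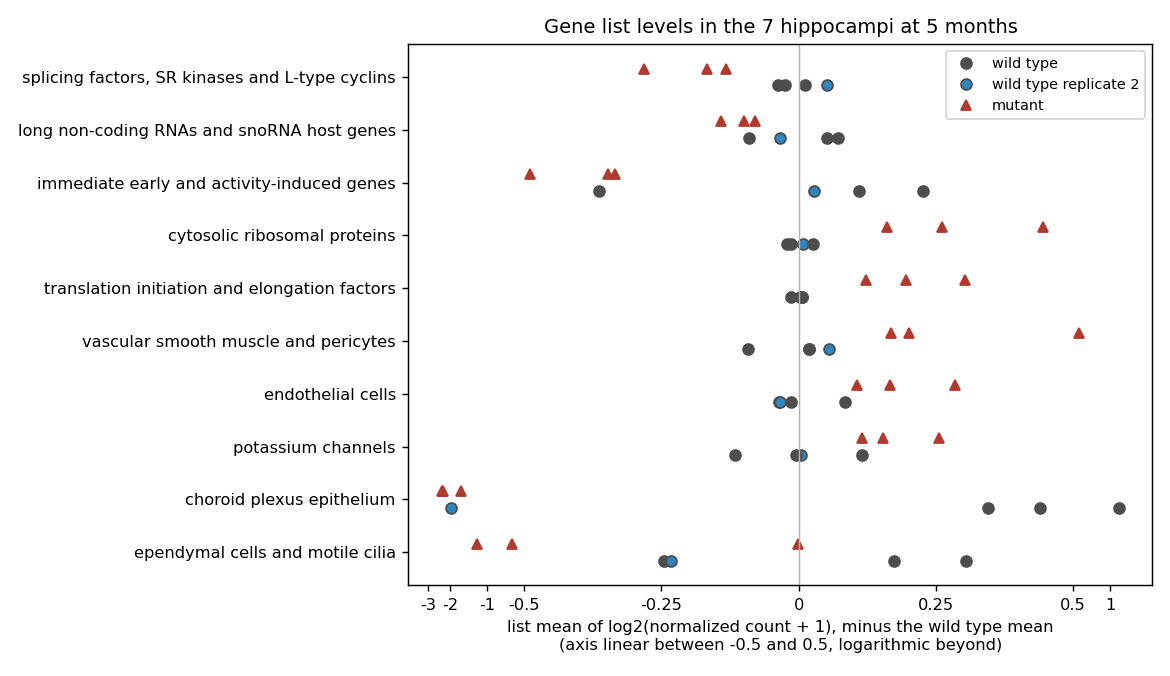
Mean log2(normalized count + 1) of the tested members of 10 gene lists in each library, relative to the mean of the 4 wild types (x axis, linear between -0.5 and 0.5 and logarithmic beyond); circles are wild types, with replicate 2 in blue, and triangles are mutants. Wild type replicate 2 lies with the mutants for choroid plexus genes, at -1.96, and with the other wild types for ribosomal proteins, at 0.0089.

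The changes were then examined with choroid plexus genes set aside. As a start, 347 of the 354 genes are outside the list, 2.24% of the 15515 genes that remain, with 175 higher and 172 lower. Next, 297 tested genes followed the choroid plexus level among the 15-month libraries, a set that rests on 1 mutant library there that held choroid plexus. Beyond the list itself 18 of them passed at 5 months, 14 of them higher, with Vtn, Podxl, Vwf, Lamb2 and Myh9 among them, and 4 lower, which were Col9a3, Sgk1, Tsc22d3 and Arrdc2, so 329 genes that passed belong to neither set (161 higher, 168 lower). Wild type replicate 2 had a choroid plexus level of 6.30 on the log2 scale, within the mutants' 5.96 to 6.62. Against this library alone the 347 genes had a median of 106% of the full change, and the 7 choroid plexus genes a median of 31.5%. The library is 1 of the 4 wild types on which the genes were chosen, and 346 of the 347 did not overlap between the genotypes, so their direction against it was fixed by that choice and is no support for them. That comparison was added after the data were seen, has 1 wild type and no test. Only Col9a3, Htr2c and Prr32 kept less than 50%, and these were chosen for naming after their values were seen. Col9a3, a collagen chain gene, was measured at 1381, 538, 1565 and 2282 in the wild types and 332, 379.9 and 398 in the mutants. Htr2c, the serotonin 2C receptor that choroid plexus carries at a high level, was at 608, 362, 541 and 750.1 in the wild types and 216, 301 and 275 in the mutants. In both, wild type replicate 2 lay between the other wild types and the mutants.

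With the choroid plexus level as a covariate 4 genes passed after adjustment over all genes: Tmem184b, BC002163, Wdfy1 and Rn45s. The covariate itself separates most wild types from the mutants. At an unadjusted p under 0.05 that fit held 4.04% (higher) and 4.43% (lower) of all genes, and 333 of the 347, which had been chosen for a small p on the same 7 libraries, so nothing is read from that count. Rn45s, the ribosomal RNA precursor, was named after its values were seen. It was measured at 10124, 5088, 6700.3 and 8178 in the wild types and 25373, 18017 and 24189 in the mutants. Every mutant lay above every wild type (1.61 ± 0.20, adjusted p = 0.0127), and with the covariate the log2 fold change was 2.03.

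**Figure D2:**
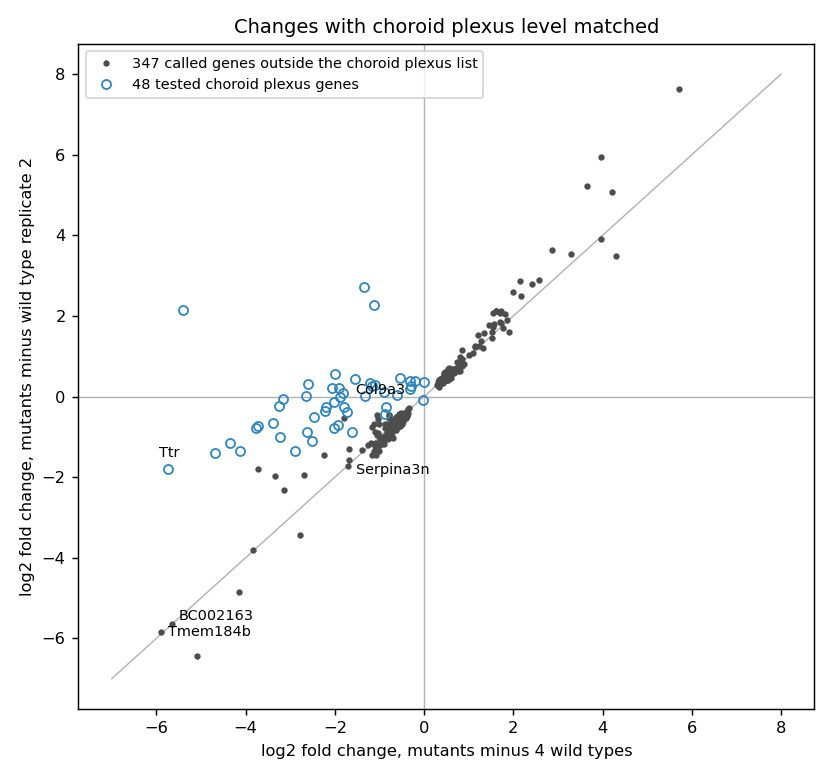
Log2 fold change of the mutants against all 4 wild types (x axis) and against wild type replicate 2 alone (y axis), for the 347 genes that passed outside the choroid plexus list (dots) and the 48 tested choroid plexus genes (circles). The dots lie near the line of equal change, their side of 0 being fixed by a choice that used this library, while the circles gather around 0 on the y axis, with a median of -0.062.

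Regulators of RNA splicing were, of all lists, the one with the most genes that fell. Of 84 tested splicing factors, SR kinases and L-type cyclins, 20 fell (23.8%, background 1.15%) and none rose. At an unadjusted p under 0.05 the list held 40 lower and 5 higher genes, 41 members did not overlap between the genotypes, and the median log2 fold change was -0.20. Cyclin L1 (Ccnl1), which pairs with the kinase CDK11 in splicing, was measured at 615, 665, 646 and 620.4 in the wild types and 373, 409 and 387 in the mutants. All mutants were below the lowest wild type (-0.71 ± 0.093, adjusted p = 0.0176). Its paralog Ccnl2 had 1755, 1778, 1982 and 1686 in the wild types and 1229.8, 1229.8 and 1148 in the mutants (-0.58 ± 0.081, adjusted p = 0.019). Srsf11, an SR protein, had 1736, 1909, 1909 and 1706 in the wild types and 1113, 1251 and 1200 in the mutants (-0.61 ± 0.081, adjusted p = 0.0178). The mutants were below the wild types in both genes. Nktr, a cyclophilin with a domain rich in arginine and serine, had 1414, 1527, 1537 and 1384 in the wild types and 849.7, 1071 and 941 in the mutants, again with no overlap (-0.62 ± 0.094, adjusted p = 0.0215). The 20 genes changed by -0.71 to -0.33. After a correction for GC and length 18 of the 20 passed, and 27 members of the whole list passed as lower (background 3.04%). Under quantile normalization all 20 passed, and 27 members of the whole list did as lower. The 20 had been chosen for a small p on the same 7 libraries, so nothing is read from how many of them passed again. The number that fell was 0 without wild type replicate 3, 3 without mutant replicate 3, 5 without wild type replicate 1 or 2, 9 without wild type replicate 4, and 24 to 26 without either other mutant.

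Of 47 tested long non-coding RNAs and host transcripts of small nucleolar RNAs, 10 fell (21.3%) and 1 rose, with a median log2 fold change of -0.24. At an unadjusted p under 0.05 the list held 20 lower (42.6%) and 7 higher genes (14.9%). The one that rose was Kcnq1ot1, an imprinted antisense RNA (1.53 ± 0.30, adjusted p = 0.0356), named after its value was seen. It overlaps Kcnq1 on the other strand, and whether the counting used strand is not given in the sources used here. Neat1 (GRCm38 chr19:5824708-5845478), the long non-coding RNA on which paraspeckles are built, was measured at 3142, 4370.2, 5219 and 4331 in the wild types and 2097, 2437 and 1845 in the mutants. The highest mutant was below the lowest wild type (-0.99 ± 0.15, adjusted p = 0.0225). Snhg3, whose introns hold small nucleolar RNAs, had 242, 276, 276 and 266 in the wild types and 116, 129 and 122 in the mutants, with the mutants at a mean of 46.1% of wild type (-1.11 ± 0.13, adjusted p = 0.00942). Snhg20 had 1083, 996, 1021 and 778 in the wild types and 536, 412 and 565 in the mutants (-0.94 ± 0.14, adjusted p = 0.0215). Firre, an X-linked RNA that stays in the nucleus, had 945, 1037, 997 and 924 in the wild types and 661, 618 and 498 in the mutants (-0.73 ± 0.11, adjusted p = 0.0215). Again no mutant reached the lowest wild type. Of the list, none fell without wild type replicate 3, 2 without mutant replicate 3, 4 and 5 without wild type replicates 2 and 1, and 12 without mutant replicate 1.

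Genes that neuronal activity switches on had lower means in most cases in Tmem184b-mutant hippocampi. Of 43 tested, 4 fell (9.30%) and none rose, 20 had a lower mean at an unadjusted p under 0.05 against 2 with a higher one, and the median log2 fold change was -0.28. Gadd45g, a stress and activity-induced gene that also acts in neurogenesis, was measured at 1205, 1102, 1248 and 1204 in the wild types and 608, 606 and 499 in the mutants. The mutants were at a mean of 48% of wild type (-1.06 ± 0.098, adjusted p = 0.00105), and the gene passed in each of the 7 fits that leave out a library. Npas4, a transcription factor that calcium entry induces in neurons, had 464, 517, 468 and 609.7 in the wild types and 376, 269 and 295 in the mutants (-0.72 ± 0.14, adjusted p = 0.0359). Sgk1, a kinase induced by both activity and glucocorticoids, had 1616, 1896, 1916 and 2304 in the wild types and 1226, 1194 and 859 in the mutants (-0.83 ± 0.14, adjusted p = 0.0278). Dusp6, a phosphatase that is induced by and switches off ERK, had 844, 1306, 1321 and 1438 in the wild types and 732, 702 and 745 in the mutants, with wild type replicate 1 below the other wild types (-0.73 ± 0.16, adjusted p = 0.0427). The same wild type was low over the list, whose mean was -0.36, 0.027, 0.11 and 0.23 in the wild types and -0.35, -0.49 and -0.33 in the mutants. Without wild type replicate 1 the list held 16 genes that fell and without mutant replicate 1 it held 7. It held 1 without any of wild type replicates 2 to 4 or mutant replicate 3.

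Glucocorticoid-induced genes overlap with that list through Sgk1, and 3 of their 26 fell. Beside Sgk1 these were Tsc22d3 and Arrdc2, and all 3 belong to the set that followed the choroid plexus level at 15 months. Tsc22d3 (GILZ), a classical glucocorticoid target, was measured at 1599, 1612, 1530.3 and 1608 in the wild types and 1314, 1085 and 1052 in the mutants (-0.47 ± 0.090, adjusted p = 0.0336). The arrestin-domain gene Arrdc2 was at 468, 480.4, 587 and 528 in the wild types and 379, 323 and 266 in the mutants (-0.68 ± 0.14, adjusted p = 0.0371). At an unadjusted p under 0.05 the list held 4 higher (15.4%) and 6 lower (23.1%) genes, with a median log2 fold change of 0.087. Tsc22d3 was also the only one of 26 clock and clock-output genes that passed. Of 30 genes of NF-kB and TNF signalling 1 fell, Nfkbiz, at 157, 139, 177 and 159 in the wild types and 106, 75 and 79.9 in the mutants (-0.87 ± 0.18, adjusted p = 0.0386). It did not pass under quantile normalization.

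Interneuron and neuropeptide genes fell at 5 of 40 tested members (12.5%), with none higher, while the median of the list was -0.043. The 5 were Npy, Sst, Htr3a, Cort and Crh, all of them peptide genes or, for Htr3a, the serotonin receptor channel of an interneuron class, and Crh was named after its value was seen. Sst (somatostatin) was measured at 13120.4, 11988, 10815 and 10596 in the wild types and 8929, 6349.5 and 6166 in the mutants, and the highest mutant stayed under the lowest wild type (-0.72 ± 0.13, adjusted p = 0.031). Npy had 2363, 2119, 1986 and 2071 in the wild types and 1625, 1314 and 1119 in the mutants (-0.67 ± 0.12, adjusted p = 0.031). Htr3a had 325, 458, 427 and 465 in the wild types and 275, 167 and 239.7 in the mutants (-0.90 ± 0.19, adjusted p = 0.0386). Cort (cortistatin), which is expressed by part of the somatostatin cells, had 461, 385, 362 and 427 in the wild types and 308, 211 and 237 in the mutants (-0.71 ± 0.15, adjusted p = 0.0404). Under quantile normalization 2 of the 5 passed, and with a library left out none passed without mutant replicate 3 or without any 1 of wild type replicates 2 to 4. Markers of thalamus, striatum and neocortex, which would enter with tissue from outside the hippocampus, showed no member that passed among 24, with list means of 0.099, -0.046, 0.083 and -0.14 in the wild types and -0.061, 0.051 and 0.27 in the mutants.

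The promoter of Sst is shown because it carries the palindrome that binds the activity-regulated factor CREB. It is given from 100 bases before to 30 after the start in RefSeq on GRCm38.p6 (chr16:23890815-23890944, minus strand), with TGACGTCA in capitals.
Sst: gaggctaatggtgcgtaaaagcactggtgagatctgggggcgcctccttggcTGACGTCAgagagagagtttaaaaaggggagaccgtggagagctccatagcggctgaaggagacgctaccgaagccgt
Searched over 250 bases before to 50 after the start on both strands (the motif is its own reverse complement, and the first promoter listed for each gene was used), TGACGTCA was held by 382 of 12193 promoters of genes tested (3.13%), by 3 of 30 of the interneuron and neuropeptide list and by 4 of 33 of the activity list. Arl4d, Btg2, Dusp1 and Pcsk1 hold it there, and none of the 4 activity genes that fell does.

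Ribosomal protein genes had higher means, by 0.017 to 0.51 on the log2 scale. All 79 tested had a higher mean in the mutants, 68 of them (86.1%, background 10.5%) at an unadjusted p under 0.05, and 11 rose (13.9%, background 1.12%). The median log2 fold change was 0.29, and list means were -0.014, 0.0089, -0.021 and 0.027 in the wild types and 0.26, 0.16 and 0.45 in the mutants. The wild types therefore lay within 0.05 of each other, and mutant replicate 3 was the highest. Rpsa, the laminin receptor protein of the small subunit, was measured at 16451, 16566, 17237 and 17130.2 in the wild types and 22383, 21916 and 24754 in the mutants (0.45 ± 0.073, adjusted p = 0.0248). Rplp0, of the stalk of the large subunit, had 9618, 9496, 9637 and 9700 in the wild types and 12214, 12040.4 and 14001 in the mutants (0.40 ± 0.073, adjusted p = 0.0313). Rpl5, which carries 5S RNA into the subunit, had 7139, 7813, 7527 and 7461 in the wild types and 9393, 9542 and 11473 in the mutants (0.43 ± 0.083, adjusted p = 0.0336). Rpl4 had 16615, 17099, 17144 and 17278 in the wild types and 22268, 20544 and 24782 in the mutants (0.40 ± 0.079, adjusted p = 0.0354). The median was close to this against wild type replicate 2 alone (median 0.28) and with the covariate (median 0.27). It depended on scaling. Quantile normalization brought the median to 0.16 and left none of the 11 past the threshold, while correcting for GC and length brought it to 0.36 with 60 genes past it (background 2.69%). No member passed without mutant replicate 3 or without any of the wild types, and 31 and 51 did without mutant replicates 1 and 2. Ribosomal protein genes have many processed copies in the genome, so reads may have been divided among them.

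Translation initiation and elongation factors shared the direction, with 30 of 43 higher at an unadjusted p under 0.05 (69.8%), 1 lower, and a median log2 fold change of 0.25. None passed after adjustment. The smallest p belonged to Tpt1, a growth-regulated gene whose mRNA is controlled like those of ribosomal proteins, with 13213, 14308, 14368 and 14534 in the wild types and 17049, 17156 and 20635 in the mutants (0.37 ± 0.085, adjusted p = 0.0508). Quantile normalization brought the median to 0.16.

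Promoters of 3 of the 11 ribosomal genes are shown. Rpl4 and Rpl13a are given for CTTTCC near the start, and Rpl13 for the palindrome shown above for Sst. Such mRNAs begin with a pyrimidine stretch through which their translation is tied to growth signalling. The marked CTTTCC lies before the annotated start in Rpl4 and after it in Rpl13a, so neither was shown to be that stretch. Rpl4 was named by its p, and Rpl13a and Rpl13, which also rose, were chosen for their motif after their values were seen. Each is given from 100 bases before to 30 after the start, from RefSeq on GRCm38.p6: Rpl4 at chr9:64173287-64173416 (plus strand), Rpl13a at chr7:45128716-45128845 (minus strand) and Rpl13 at chr8:123102250-123102379 (plus strand). Capitals mark CTTTCC in Rpl4 and Rpl13a, and TGACGTCA in Rpl13.
Rpl4: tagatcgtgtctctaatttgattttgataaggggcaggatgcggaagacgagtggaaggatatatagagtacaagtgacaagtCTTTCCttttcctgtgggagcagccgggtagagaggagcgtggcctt
Rpl13a: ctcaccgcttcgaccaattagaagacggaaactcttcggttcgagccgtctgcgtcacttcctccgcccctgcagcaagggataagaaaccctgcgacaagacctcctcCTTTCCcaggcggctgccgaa
Rpl13: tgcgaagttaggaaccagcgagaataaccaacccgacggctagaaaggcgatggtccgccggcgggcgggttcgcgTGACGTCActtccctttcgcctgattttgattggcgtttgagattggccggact
On the transcribed strand, within 20 bases before or after the start, CTTTCC was held by 9 of 58 ribosomal promoters matched (15.5%), against 206 of 12193 promoters of genes tested (1.69%), 1 of 33 of the translation factors and 1 of 76 of the splicing list. TGACGTCA was held by 6 of the 58 (10.3%).

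**Figure D3:**
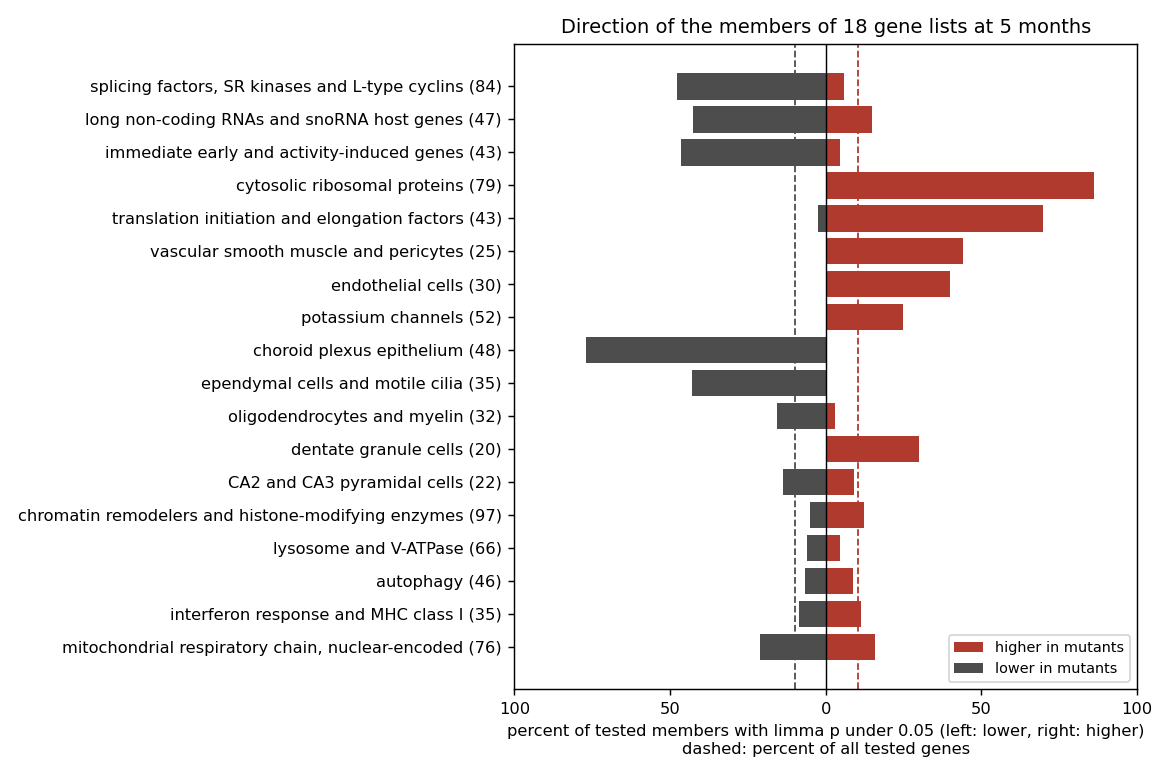
Percent of the tested members of 18 gene lists (number tested in brackets) with an unadjusted limma p under 0.05 and a higher mean (red, to the right) or a lower mean (grey, to the left) in mutants; dashed lines are the shares over all genes tested, 10.5% and 9.99%. Ribosomal proteins reach 86.1% on the right, and splicing factors 47.6% on the left, while lysosome and autophagy genes stay under the dashed lines.

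Of 25 tested genes of vascular smooth muscle and pericytes, 3 rose (12%) and none fell, 11 had a higher mean at an unadjusted p under 0.05, and the list median was 0.32. Myh11, the smooth muscle myosin heavy chain, was measured at 601, 578, 626 and 533 in the wild types and 870.1, 1158 and 1052 in the mutants, with every mutant above every wild type (0.80 ± 0.11, adjusted p = 0.019). Vtn (vitronectin), which brain pericytes express, had 3183, 3498, 3686 and 3309.8 in the wild types and 4761, 6028 and 5016 in the mutants (0.62 ± 0.092, adjusted p = 0.0215). Smooth muscle actin (Acta2) had 805, 963, 1068 and 912 in the wild types and 1386, 1772 and 1327 in the mutants (0.67 ± 0.12, adjusted p = 0.0313). Mutant replicate 2 was the highest of the mutants in all 3. Endothelial genes rose at 2 of 30, and at an unadjusted p under 0.05 the list held 12 higher genes (40%) and 0 lower. Its median log2 fold change was 0.20, and 0.24 with the choroid plexus level as a covariate. Podxl, a sialomucin of vessels, was at 1005, 1139.7, 1065 and 975 in the wild types and 1479.8, 1622 and 1441 in the mutants (0.53 ± 0.086, adjusted p = 0.0248). The clotting factor Vwf was at 979, 793, 967 and 873 in the wild types and 1449, 2134 and 1247 in the mutants (0.80 ± 0.16, adjusted p = 0.0354). Podxl, Vwf and Vtn belong to the set that followed the choroid plexus level at 15 months, so both endothelial genes that rose lie in it. With that set left out 2 smooth muscle and pericyte genes passed. Of 29 fibroblast and collagen genes 1 rose, Igfbp6, at 828, 695, 681 and 572 in the wild types and 1104, 1129 and 1155 in the mutants (0.71 ± 0.12, adjusted p = 0.0248). The fibroblast list mean was 0.070, -0.037, 0.086 and -0.12 in the wild types and -0.074, 0.73 and -0.083 in the mutants, so that this mean was high in mutant replicate 2 alone. At an unadjusted p under 0.05 the fibroblast list held 11 higher (37.9%) and 2 lower genes (6.90%), with a median log2 fold change of 0.30. Its members ran from -2.61 to 0.82. The summed level of the smooth muscle and pericyte genes ran from 13335 to 15108 in the wild types and 17519 to 22255 in the mutants, and that of the fibroblast genes from 13595 to 16429 in the wild types and 15715 to 27433 in the mutants. The part of meninges or vessels left on the tissue in these differences was not tested. Without mutant replicate 3 or wild type replicate 3 no smooth muscle or pericyte gene passed, 1 passed without wild type replicate 4, and 5 without mutant replicate 1.

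Astrocyte genes rose at 3 of 34 and fell at 1, with a median of 0.14 and list means of -0.0078, 0.029, 0.011 and -0.032 in the wild types and 0.14, 0.14 and 0.12 in the mutants. At an unadjusted p under 0.05 the list held 10 higher (29.4%, background 10.5%) and 2 lower genes (5.88%). Quantile normalization brought its median to 0.056. The intermediate filament Gfap was measured at 17599, 17875, 18283 and 15208 in the wild types and 25542, 23673 and 25996 in the mutants (0.54 ± 0.084, adjusted p = 0.0235). Gpr37l1, a receptor on astrocytes, had 8159, 7671, 7611 and 7589.7 in the wild types and 10995, 9509 and 11119.6 in the mutants (0.44 ± 0.076, adjusted p = 0.0301). Id4, a repressor of differentiation in neural stem cells and astrocytes, fell, with 2360.1, 2619.5, 2566 and 2444 in the wild types and 1447, 2044 and 1491 in the mutants (-0.61 ± 0.11, adjusted p = 0.0318). Of 29 genes of reactive astrocytes only Serpina3n passed, and it fell. This protease inhibitor, which rises steeply in reactive gliosis and with glucocorticoids, was measured at 4214, 5096, 8686 and 4929.7 in the wild types and 2008, 1904 and 1325 in the mutants. Wild type replicate 3 was the highest and every mutant lay below the lowest wild type (-1.68 ± 0.22, adjusted p = 0.0176). It passed in each of the 7 fits that leave out a library.

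Microglial genes moved both ways, with 3 of 30 higher and 1 lower and a list median of 0.069. Olfml3 had 739, 730.2, 808 and 635 in the wild types and 1042, 1133 and 1068 in the mutants (0.57 ± 0.098, adjusted p = 0.0269). Crybb1 had 237, 251, 263 and 173 in the wild types and 375, 387 and 401 in the mutants (0.76 ± 0.15, adjusted p = 0.0368), and both genes mark resting microglia. Ms4a6c was measured at 48, 17.5, 22.9 and 12.3 in the wild types and 86.5, 119 and 247 in the mutants, most in mutant replicate 3 (2.57 ± 0.46, adjusted p = 0.031). Itgam, the integrin CD11b, fell, with 476, 548, 502 and 498 in the wild types and 360.1, 391 and 308 in the mutants (-0.52 ± 0.11, adjusted p = 0.0429), and did not pass under quantile normalization. No member passed among 32 genes of oligodendrocytes and myelin, where Cryab had the smallest p (-0.64 ± 0.20, adjusted p = 0.11), among 19 of oligodendrocyte precursors (Tnr, 0.52 ± 0.15, adjusted p = 0.084), 20 of dentate granule cells (Trpc6, 0.44 ± 0.13, adjusted p = 0.0928) or 22 of CA2 and CA3 pyramidal cells (Cpne4, -0.26 ± 0.078, adjusted p = 0.105). Of 17 CA1 genes 1 rose, the transcription factor Pou3f1 (0.44 ± 0.095, adjusted p = 0.0428), which did not pass after the GC and length correction or quantile normalization.

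**Figure D4:**
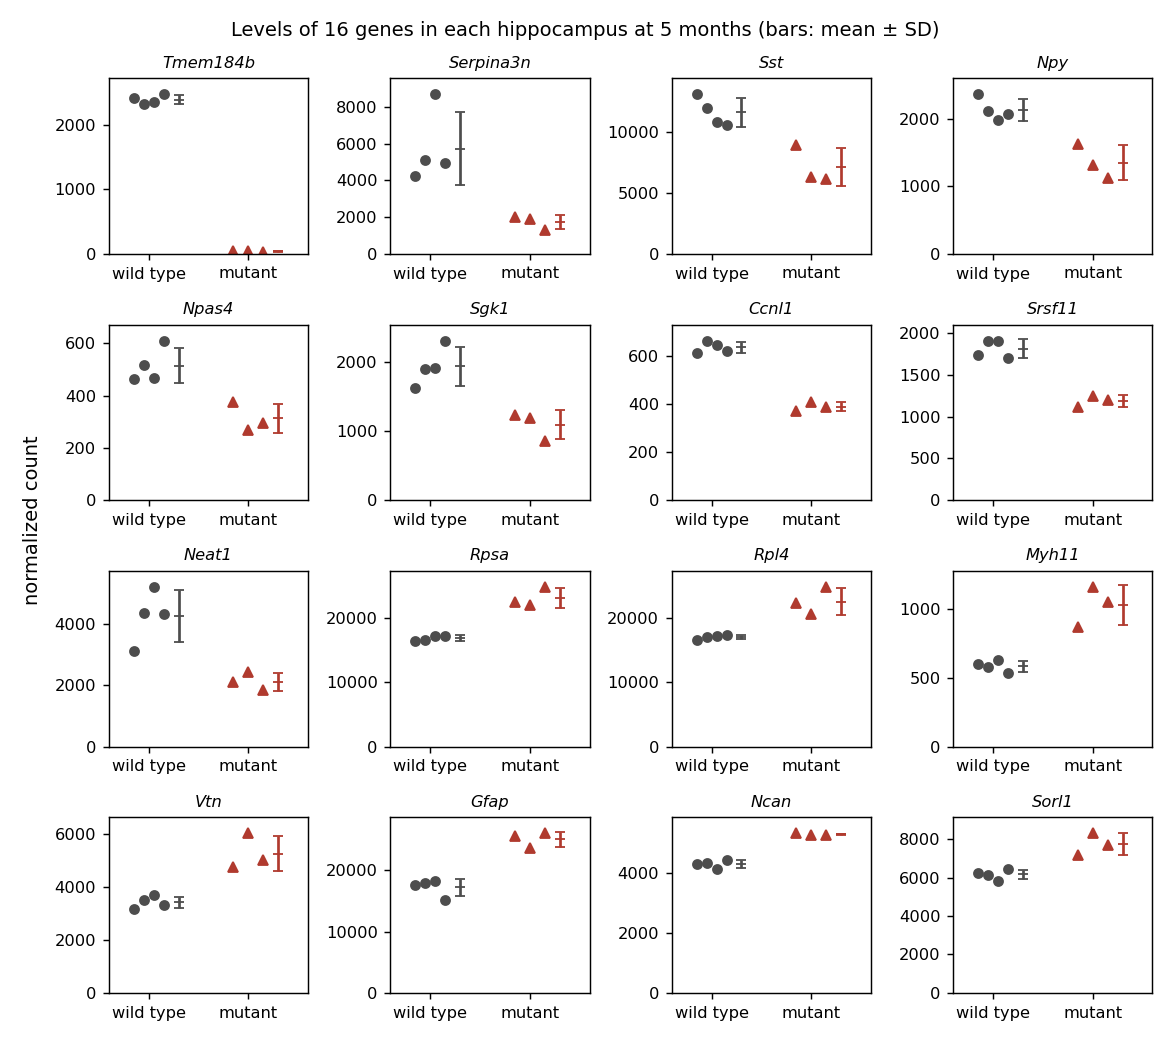
Normalized counts (y axes, from 0) of 16 genes in each wild type (circles) and mutant (triangles) hippocampus at 5 months, with mean ± SD beside the points. In all 16 panels the genotypes are separate, from Tmem184b, with mutants at 1.66% of wild type, to Sorl1, whose highest wild type and lowest mutant are 6437 and 7149.

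Few genes of the organelle and protein turnover lists passed. None of 66 lysosome and V-ATPase genes passed, with 3 higher and 4 lower at an unadjusted p under 0.05, and the smallest p belonged to the thioesterase Ppt1 (-0.28 ± 0.066, adjusted p = 0.0513). None of 46 autophagy genes passed (smallest p Plekhm2, 0.30 ± 0.080, adjusted p = 0.0694), nor of 33 cholesterol genes (Lrp1, 0.26 ± 0.068, adjusted p = 0.0684). Pink1, the kinase that marks damaged mitochondria, was the only one of 36 mitophagy genes to rise, with 14415, 15021, 15838 and 14988 in the wild types and 22078, 18637 and 19508 in the mutants (0.41 ± 0.079, adjusted p = 0.0336), and 6 (16.7%) were higher at an unadjusted p under 0.05. Psmc1, an ATPase of the proteasome cap, was the only one of 46 proteasome genes to rise (0.44 ± 0.093, adjusted p = 0.0405). It did not pass under quantile normalization, and 9 of the list (19.6%) were higher at an unadjusted p under 0.05. Heat shock and unfolded protein genes rose at 2 of 44, the chaperone cofactor Bag1 (0.50 ± 0.098, adjusted p = 0.0354) and the mitochondrial stress factor Atf5 (0.42 ± 0.088, adjusted p = 0.0386). Nuclear-encoded respiratory chain genes had 12 higher (15.8%) and 16 lower (21.1%) members of 76 at an unadjusted p under 0.05, against 10.5% and 9.99% of all genes. In that list Cox8a, a subunit of complex IV, fell, with 15325, 15608, 16162 and 16553 in the wild types and 12321, 12185 and 9799 in the mutants (-0.48 ± 0.089, adjusted p = 0.0313), and Ndufs5, described below, rose. None of 15 listed mitochondrially encoded genes was in the table used here. Of 35 interferon and MHC class I genes 1 rose, H2-T24, at 63.6, 59.4, 64.6 and 53.4 in the wild types and 134, 166 and 132 in the mutants (1.24 ± 0.19, adjusted p = 0.0215).

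Endosomal sorting genes had 2 of 52 higher and 1 lower. Wdfy1, which binds the endosomal lipid PI3P, was measured at 256, 243, 207 and 228 in the wild types and 649, 716 and 641 in the mutants, with every mutant above every wild type (1.51 ± 0.11, adjusted p = 0.000211). It passed in each of the 7 fits without 1 library. Sorl1, a sorting receptor for the amyloid precursor protein and a risk gene for Alzheimer disease, had 6261, 6110, 5834 and 6437 in the wild types and 7149, 8294 and 7717 in the mutants (0.32 ± 0.074, adjusted p = 0.0496). The adaptor Appl2 fell, with 1263, 1395, 1327 and 1312 in the wild types and 863, 1062 and 976 in the mutants (-0.46 ± 0.090, adjusted p = 0.0354). Sorl1 and Ms4a6c were the 2 that rose of 42 Alzheimer disease genes, and Sorl1 did not pass after the GC and length correction or quantile normalization. Sorl1 passed in 1 of the 7 fits without 1 library. Motor protein and tubulin genes rose at 2 of 54. The non-muscle myosin Myh9 (0.39 ± 0.079, adjusted p = 0.0369) did not pass after the GC and length correction. The dynein light chain Dynll2 (0.50 ± 0.11, adjusted p = 0.0474) did not pass under quantile normalization and passed in 1 of the 7 fits without 1 library. The dynein intermediate chain Dync1i2 fell (-0.40 ± 0.085, adjusted p = 0.0419). At an unadjusted p under 0.05 the motor list held 18 higher (33.3%) and 4 lower genes (7.41%). Its median log2 fold change was 0.080, and -0.00087 under quantile normalization.

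Few genes of excitability and signalling passed, but in several lists the share that rose exceeded the 1.12% of all genes. It was 2.94% of sodium, calcium and HCN channels, 2.78% of synaptic vesicle genes, 3.03% of calcium and cAMP genes and 3.23% of MAPK genes. At an unadjusted p under 0.05 these lists held 17.6%, 19.4%, 22.7% and 16.1% higher genes (background 10.5%). Lower genes there were 2.94%, 4.17%, 3.03% and 6.45% (background 9.99%). GABA receptor genes held 21.4% and 3.57%. No potassium channel passed among 52, but 13 had a higher mean at an unadjusted p under 0.05 (25%) and none a lower one, with a median log2 fold change of 0.15 and Kcnk2 first (0.41 ± 0.10, adjusted p = 0.0572). Under quantile normalization that median was 0.11. Of 34 sodium, calcium and HCN channels the pacemaker channel Hcn2 rose, with 8463, 7892, 7913 and 8682 in the wild types and 12672, 10045 and 13076 in the mutants (0.53 ± 0.096, adjusted p = 0.0313). Of 72 synaptic vesicle genes 2 rose, Git1 (0.51 ± 0.085, adjusted p = 0.0248) and complexin 2 (Cplx2, 0.47 ± 0.098, adjusted p = 0.0392), which did not pass under quantile normalization, and none of 28 GABA receptor and inhibitory synapse genes passed, Lhfpl4 coming first (0.32 ± 0.085, adjusted p = 0.0716). The junctophilins Jph3 (0.47 ± 0.085, adjusted p = 0.0313) and Jph4 (0.39 ± 0.076, adjusted p = 0.0354), which tether endoplasmic reticulum to the plasma membrane, rose among 66 calcium and cAMP genes, and the anchoring protein Akap13 fell (-0.54 ± 0.086, adjusted p = 0.0248). In the MAPK list of 62 the kinase Map3k10 was among the genes that rose (0.49 ± 0.091, adjusted p = 0.0313) and the S6 kinase Rps6kb2 fell (-0.61 ± 0.088, adjusted p = 0.0215). The list medians turned or vanished with scaling, from 0.082 to -0.021 under quantile normalization for synaptic vesicle genes, from 0.084 to -0.017 for calcium and cAMP genes, from 0.030 to -0.018 for sodium, calcium and HCN channels and from 0.055 to 0.00032 for GABA receptor genes. Of 52 monoamine, acetylcholine and peptide receptors Htr2c alone passed, and it kept 44.1% of its change against wild type replicate 2 alone. Of 17 PPM family phosphatases Ppm1h rose (0.40 ± 0.070, adjusted p = 0.0305).

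Among 97 chromatin genes 2 rose, the remodeler Srcap, at 4299, 4520.4, 4519.9 and 4329 in the wild types and 7418, 6012 and 6501 in the mutants (0.58 ± 0.080, adjusted p = 0.019), and the H3K4 methyltransferase Kmt2d (0.40 ± 0.069, adjusted p = 0.0278), which did not pass after the GC and length correction. The semaphorin receptor Plxna4 was the only one of 70 axon guidance genes to pass (0.33 ± 0.067, adjusted p = 0.0386), and of 41 neurogenesis genes only Gadd45g did. Extracellular matrix genes went both ways, with 3 of 50 higher and 2 lower. Neurocan (Ncan), a proteoglycan of perineuronal nets, was measured at 4293, 4318, 4102 and 4418 in the wild types and 5301, 5260 and 5246 in the mutants (0.30 ± 0.064, adjusted p = 0.0419). The vessel laminin Lamb2 rose (0.44 ± 0.095, adjusted p = 0.0429), as did the syndecan Sdc3 (0.38 ± 0.083, adjusted p = 0.0454), named after its value was seen. The protease Adamts10 fell, with 825, 869, 822 and 815 in the wild types and 559, 576 and 514 in the mutants (-0.60 ± 0.087, adjusted p = 0.0215). The peroxidase Pxdn, which cross-links basement membrane, fell as well, with 1309, 1595, 1468 and 1068 in the wild types and 808, 782 and 781 in the mutants (-0.77 ± 0.12, adjusted p = 0.0248). Plxna4, Ncan and Lamb2 did not pass after the GC and length correction, nor Plxna4, Ncan and Sdc3 under quantile normalization. Lamb2 passed in 1 of the 7 fits without 1 library.

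The largest increases outside the choroid plexus list shared 1 pattern across libraries. By rule these were the 12 highest log2 fold changes among genes with a mean of at least 100 and no overlap: Gm4981, Zfp457, Gm7609, Gm9159, Grk1, Olfr856-ps1, Ap1s3, A630089N07Rik, 5031426D15Rik, Tyms, Cntnap5c and Nkain3, from 5.71 down to 1.62. Mutant replicate 3 was the highest mutant in all 12, at 2.14 to 3.13 times the mean of the other mutants, and wild type replicate 1 was the highest wild type in 10. Zfp457 was measured at 177, 5.6, 15.9 and 22.3 in the wild types and 275, 283 and 874 in the mutants (3.97 ± 0.87, adjusted p = 0.0444). Gm4981 was at 37.4, 0, 1.68 and 0.97 in the wild types and 180.4, 105 and 404 in the mutants, near 0 in 3 wild types (5.71 ± 1.02, adjusted p = 0.0313). Tyms, thymidylate synthase, had 489.9, 329, 407 and 536 in the wild types and 1127, 1016 and 2587 in the mutants (1.73 ± 0.28, adjusted p = 0.0248). Grk1, the rhodopsin kinase, had 208, 102, 117 and 119.5 in the wild types and 451, 534 and 1467 in the mutants (2.42 ± 0.36, adjusted p = 0.0215). The AP-1 adaptor subunit gene Ap1s3 had 489, 167, 244 and 211 in the wild types and 705, 724 and 2039.8 in the mutants (1.99 ± 0.40, adjusted p = 0.0367) and lies beside Wdfy1 on chromosome 1 (GRCm38 chr1:79606876-79671972 and chr1:79702262-79776143). Over all 175 genes that rose, mutant replicate 3 was the highest mutant in 103 (58.9%), a share that was 33.9% over the 7788 genes with a higher mean in mutants. Several of the 12 are pseudogenes or zinc finger genes with close copies, whose reads may be divided by the counting.

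The largest decreases by the same rule were Tmem184b, BC002163, Eno1b, Col9a3, Sgsm1, Serpina3n, Lncppara, Cfap65, Snhg3, Zfp874a, Mroh7 and G2e3. Sgsm1, a Rab and Rap regulator of neurons, was measured at 2809.7, 2574, 2803 and 2086 in the wild types and 335, 1143 and 1233 in the mutants, lowest in mutant replicate 1 (-1.71 ± 0.36, adjusted p = 0.0404). Mroh7 had 365, 321, 406 and 413 in the wild types and 206, 148 and 175 in the mutants (-1.09 ± 0.15, adjusted p = 0.019). The ubiquitin ligase gene G2e3 had 141, 202, 159.8 and 137 in the wild types and 49.6, 90.9 and 89.7 in the mutants (-1.09 ± 0.24, adjusted p = 0.0459). Zfp874a had 189.7, 216, 181 and 198 in the wild types and 86.9, 134 and 64.7 in the mutants (-1.10 ± 0.22, adjusted p = 0.0373). The long non-coding Lncppara had 192, 285, 239 and 220 in the wild types and 75.5, 95.2 and 152 in the mutants (-1.16 ± 0.23, adjusted p = 0.0355). Eno1b was measured at 9483, 9128, 183 and 10753 in the wild types and 96.6, 108 and 111 in the mutants, with wild type replicate 3 far nearer to the mutants than to the other wild types (-5.09 ± 1.14, adjusted p = 0.0472). Added to Eno1, the glycolytic enolase gene of which it is a copy, the sums were 38781, 36872, 39706 and 42326 in the wild types and 53106, 39662 and 45668 in the mutants (two-sided exact permutation test on the log2 scale, p = 0.171). The sums were 0.22 higher in the mutants on the log2 scale. With 4 against 3 mice that test cannot give a p below 0.0571, so it could not reach 0.05.

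BC002163 is a processed copy of Ndufs5, a small subunit of respiratory complex I, and the pair is shown because its 2 transcripts differ at few positions. The 319 bases of the copy aligned with the Ndufs5 transcript without a gap at 99.4% identity. The first 120 coding bases of Ndufs5 (GRCm38 chr4:123715960-123716079, minus strand) and the matching bases of BC002163 (chr16:42955631-42955750, plus strand), from the GENCODE transcripts, are given with the differing bases in capitals. Counted from 1 at the first coding base these are T81C and A105G, with the base of Ndufs5 first.
Ndufs5: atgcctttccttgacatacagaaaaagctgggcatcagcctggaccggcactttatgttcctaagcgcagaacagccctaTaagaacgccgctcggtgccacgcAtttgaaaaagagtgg
BC002163: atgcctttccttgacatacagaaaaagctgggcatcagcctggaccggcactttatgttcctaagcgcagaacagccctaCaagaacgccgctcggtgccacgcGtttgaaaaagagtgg

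BC002163 was measured at 1966, 1916, 1962 and 1883 in the wild types and 45, 31.5 and 37.2 in the mutants (-5.65 ± 0.13, adjusted p = 7.19e-10). Ndufs5 was at 2383, 2377, 2136 and 2025 in the wild types and 4419, 3974 and 4015 in the mutants (0.89 ± 0.083, adjusted p = 0.00105). The sum of the pair was 4348, 4293, 4098 and 3907 in the wild types and 4465, 4005 and 4053 in the mutants, with means of 4162 ± 201 (SD, n = 4) and 4174 ± 253 (SD, n = 3). The sums differed by 0.0039 on the log2 scale (two-sided exact permutation test, p = 0.914, the lowest p it can give being 0.0571). Reads of such a pair may be divided between the copies by the counting. At 15 months the levels did not follow the genotype. BC002163 was at 31.8, 1890 and 1587 in the wild types and 14.4, 2042 and 3537 in the mutants. Ndufs5 was at 3959, 2247 and 2155 in the wild types and 4881, 2583 and 21 in the mutants.

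**Figure D5:**
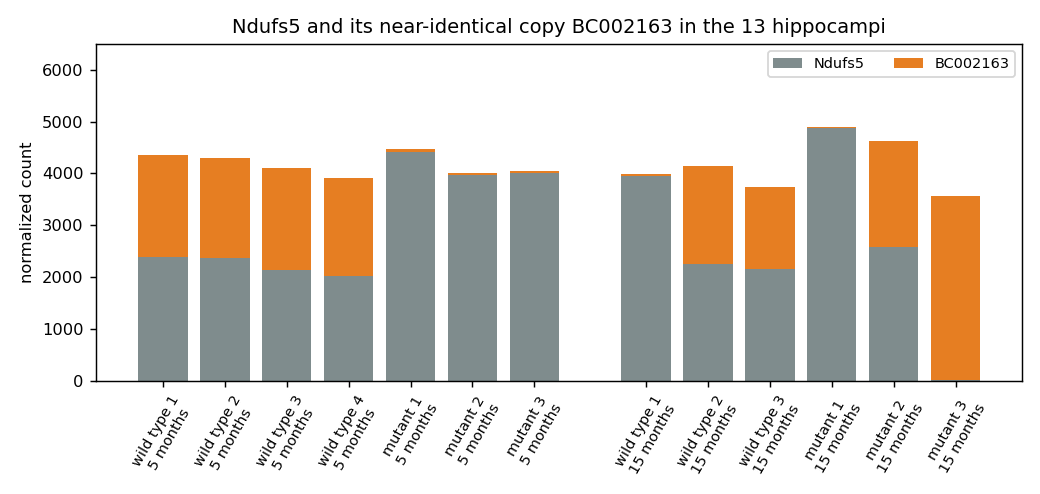
Normalized counts of Ndufs5 (grey) and BC002163 (orange), stacked, in the 13 libraries of both ages. The stacks are of similar height, from 3558 to 4895, while BC002163 is near 0 in all 3 mutants at 5 months and in 1 wild type and 1 mutant at 15 months.

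Genes that are known to differ between colonies of C57BL/6 were looked at beside this pair. Of the 5 tested, Wdfy1 passed. Nnt, the mitochondrial transhydrogenase that is disrupted in C57BL/6J, was measured at 668, 401, 679 and 426 in the wild types and 782, 805 and 885 in the mutants (0.64 ± 0.18, adjusted p = 0.0895). Ide was at 1182, 1154, 1493 and 734 in the wild types and 1575, 1601 and 1659.9 in the mutants (0.54 ± 0.18, adjusted p = 0.131). Entpd4 was at 0, 140.2, 410 and 178 in the wild types and 0, 69.6 and 0 in the mutants (-3.78 ± 1.98, adjusted p = 0.313). Gabra2 was at 994, 1131, 1138 and 1076 in the wild types and 1031, 1312 and 2308 in the mutants (0.43 ± 0.21, adjusted p = 0.273). Nnt and Ide did not overlap between the genotypes, and the wild types differed among themselves in Nnt. Whether mutants and wild types differ in genetic background was not tested.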

How the data were processed

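RNA was sequenced from whole hippocampi as paired 150-base reads. Per the labels, the authors quantified transcripts with Salmon 0.11.1 against mm10 and normalized with DESeq2. The values deposited are a signal, normalized counts with decimals, in a separate table for each age. Of the low values, 41.8% to 72.9% were whole multiples of a common unit (tolerance 0.02), too few to recover reads. No count test was run and depth is unknown. Columns were matched to mice by the labels' sample descriptions, and 0 columns were left unmatched.

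Genotypes were compared with limma 3.58.1 in R 4.3.3 (lmFit, eBayes with a trend), two-sided, on log2(value + 1), which understates changes of low genes. The script was tested on simulated data. Gene lists (50) are described by counts and medians without a set test. The members and all lists were chosen with earlier results of these data known. Named genes are Tmem184b, the 12 highest and 12 lowest changes among genes that passed outside the choroid plexus list (mean of at least 100, no overlap), the 5 most abundant choroid plexus genes, up to 4 members that passed in each other list (the smallest p where none did), and substrain and sex-linked genes. Positions, lengths and GC content (15427 genes) come from GENCODE vM21 (GRCm38), promoters from RefSeq (GRCm38.p6). Tables were handled in Python 3.11.15 with pandas 2.3.3. Alternatives were pseudocounts of 0.1 and 10, no filter, a mean of at least 100, recentring on trimmed means (0.3), quantile normalization, robust hyperparameters, a loess correction for GC content and length (span 0.3), the replicate number as a block with and without it, an adjusted p under 0.01, each library left out, and 3 ways of setting choroid plexus aside. A few genes that the naming rule covers are counted in their lists and not reported here by name.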

Additional observations from a re-analysis of the deposited data

Results flagged for a closer look

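Among the wild types, 11 of the 116 named genes had 1 library far from the other 3 by Dixon's criterion for 4 values. For unselected genes that vary independently, chance would give about 5.8. Most named genes were selected on these libraries and several share 1 pattern across them, so nothing is read from the number. Gap over range came to 0.955 for Gm4981, 0.976 for Olfr856-ps1, 0.929 for Gm7609, 0.902 for Zfp457, 0.892 for A630089N07Rik and 0.831 for Grk1, and in these 6 the distant library was wild type replicate 1. It was 0.846 for Eno1b, where wild type replicate 3 was low, 0.981 for Cpne4, 0.857 for Gpr37l1 and 0.838 for Tsc22d3. For Xist it was 1, wild type replicate 1 being the female.

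The genotype effect differed between 15 and 5 months (limma on all 13 libraries, adjusted p under 0.05) for 268 of 15340 genes tested at both ages (1.75%), and for 20 of the named genes. Most named genes were chosen for their change at 5 months, which enters this difference. Their number and the size of their differences are shaped by that choice, so nothing is read from that number. The ages were normalized in separate tables, and this difference was not computed with a GC correction. The values below are the 15-month log2 fold change less the 5-month one. The activity genes Npas4 and Gadd45g had 2.01 and 1.48, having fallen in mutants at 5 months and being higher in all 3 mutants at 15. The L-type cyclins Ccnl1 and Ccnl2 had 0.827 and 0.625. Genes with a higher value at 15 months further included Mroh7 at 1.15, Adamts10 at 0.774, Itgam at 0.766, Cox8a at 0.74 and Rps6kb2 at 0.736. The neuronal and matrix genes Tnr, Plxna4, Sorl1, Ppm1h and Ncan had -1.43, -0.739, -0.718, -0.68 and -0.61. Among the largest increases at 5 months the values were -5.63 for Gm4981, -2.42 for Grk1, -2.28 for A630089N07Rik, -2.05 for Cntnap5c, -2.02 for Olfr856-ps1 and -1.77 for Tyms, and none of these 6 passed at 15 months.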

How the results depend on the processing

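The number of genes past the threshold (354, with 175 higher and 179 lower, and 347 outside the choroid plexus list) stayed within 1.5 times under both pseudocounts, both filters, trimmed means, quantile normalization, robust hyperparameters and the removal of choroid plexus or choroid-following genes. The correction for GC content and length gave 884 genes (415 higher, 469 lower, 867 outside the list). The replicate block gave 9 (4 higher, 5 lower, 9 outside), and the block with that correction 147 (53 higher, 94 lower, 147 outside). Nothing ties same-numbered mice to each other, and their deviations did not go together (r = 0.058, -0.0080 and -0.091). The choroid plexus covariate gave 4 (2 higher, 2 lower, 4 outside), and an adjusted p under 0.01 gave 6 (2 higher, 4 lower, 6 outside). With 1 library left out the counts ran from 7 to 911 in all, 2 to 612 higher, 5 to 392 lower and 7 to 902 outside the list. Of the 354 genes, 266 were also called under quantile normalization and 333 after the GC and length correction. Among the named genes signs reversed for Ace (0.48), Igf2 (0.36) and Igfbp2 (0.59) with the covariate and, for the same 3, against wild type replicate 2 alone (0.33, 0.18 and 0.39), for Xist with a library left out (-0.38 to 4.83), and for Ddx3y, at 0.42 with the block, 0.48 with the block and GC correction, -2.64 to 2.90 with a library left out, each group holding 1 female. The cause was not tested.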
